A study of Mus musculus with 19 samples.

Results

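The glucocorticoid receptor gene Nr3c1 and 9 of its target genes (Fkbp5, Tsc22d3, Sgk1, Zbtb16, Pdk4, Depp1, Sult1a1, Errfi1 and Cdkn1a) were followed in endothelial cells of the mouse brain during and after chronic social defeat (CSD). A gene was taken where the array annotation gave it as the only symbol of a row. All 10 genes had exactly 1 such row, out of 65956 rows tested and 30176 genes with a row of their own. The array data came from 19 wild-type (WT) male C57BL/6N mice, aged 8 to 10 weeks in the methods, in 5 groups. Home cage controls (HC, n = 4, animals 1, 2, 5 and 6) lived beside another mouse behind a partition and were not defeated. Defeated mice lived beside an aggressive CD-1 male and met it daily for 1 day (CSD1, n = 3, animals 4, 18 and 19), 7 days (CSD7, n = 4, animals 9, 16, 17 and 25) or 14 days (CSD14, n = 4, animals 12 to 15), with an encounter of 10 min in the labels and a shorter one in the methods. Recovered mice (CSDrec, n = 4, animals 28 to 31) had 14 days of defeat followed by 7 days back under home cage conditions. By the methods, cells were taken 16 h after the last defeat from brain without cerebellum, brainstem and meninges, and sorted as CD31+ DRAQ5+ DAPI- cells. Defeated mice had been picked for a stress-susceptible behavior, except that mice with a single defeat were not phenotyped, so that CSD7, CSD14 and CSDrec stand for susceptible animals and CSD1 does not. The behavior tests, given the day before the endpoint to all but the single-defeat mice, thus also included HC. They involved a CD-1 mouse in a perforated cylinder. HC animal 5 is a home cage animal by its title and source, while another label field calls it stressed, and it was kept as HC. Each array holds the cells of 1 brain.

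The glucocorticoid receptor waits in the cytoplasm in a complex of Hsp90 and other chaperones. Corticosterone, the main glucocorticoid of the mouse, crosses the membrane and binds it, and the receptor then moves to the nucleus, where it raises genes at paired DNA elements and lowers many inflammatory genes by binding to other factors. Brain endothelial cells meet the hormone directly from the blood, and glucocorticoids are known for tightening their barrier.

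The values are log2 intensities as the authors deposited them, so that 1 unit is a doubling, and levels of different genes are not compared with each other. Every row was fitted in limma over all 19 arrays, and adjusted p is its Benjamini-Hochberg value over the 65956 rows of a comparison, with 0.05 as the threshold. A row counted as expressed with a mean above 3.10, the 95th percentile of 1567 rows for olfactory, vomeronasal and taste receptors. All 10 genes lay above it, with means over the 19 arrays from 4.99 (Errfi1) to 8.38 (Cdkn1a). The HC arrays numbered 1 and 2 differed in shape from the remaining 17. Their values spread less (SD 1.58 and 1.54 over all rows, against 1.72 to 1.84), and the median of expressed rows was 4.01 and 4.00 against 4.39 to 4.51. Against all 4 HC animals the median expressed row therefore differed by 0.23, 0.22, 0.21 and 0.22 in CSD1, CSD7, CSD14 and CSDrec, and against HC animals 5 and 6 alone by 0.057, 0.056, 0.050 and 0.051. Every change below is read beside that shift, and all 4 stress groups share the same HC animals. The 19 endothelial markers were expressed in every group. Their mean per animal was 9.91 to 10.21 in HC, 10.24 to 10.43 in CSD1, 10.09 to 10.41 in CSD7, 10.29 to 10.42 in CSD14 and 10.22 to 10.44 in CSDrec. All 19 differences from HC were positive in each stress group, with medians of 0.25, 0.21, 0.28 and 0.22. Of these markers 4, 2, 7 and 0 passed as higher, against 12.6%, 19.2%, 14.6% and 0.0364% of expressed rows. Against HC animals 5 and 6 alone none passed by limma, and 6, 4, 9 and 2 of the 19 had an unadjusted p below 0.05. Of all rows 8.69%, 9.29%, 9.12% and 7.38% had one. In sorted bulk samples a change in the number of cells of a type cannot be told apart from a change of RNA per cell.

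Of the 10 genes, 7 passed the test as higher than HC in CSD7 and 7 in CSD14, 3 in CSD1 and 0 in CSDrec, and none passed as lower. In CSD7 these were Fkbp5, Tsc22d3, Sgk1, Pdk4, Depp1, Sult1a1 and Errfi1. In CSD14 Cdkn1a passed in place of Pdk4, and in CSD1 Pdk4, Sult1a1 and Errfi1 passed. The 10 genes were chosen with earlier results of these data known, so their counts are a description and no independent check. The background was high, since 5.84%, 9.04%, 6.87% and 0.0167% of all rows passed as higher in CSD1, CSD7, CSD14 and CSDrec. Among the 30198 expressed rows the shares were 12.6%, 19.2%, 14.6% and 0.0364%. Rows that passed as lower were 0.96%, 1.96%, 1.03% and 0%. At an unadjusted p below 0.05 the counts of the 10 genes were 7, 8, 9 and 6, where 29.7%, 31.8%, 28.8% and 26.3% of all rows had one. The median log2 difference of the 10 genes was 0.60, 0.75, 0.74 and 0.33. Over all 5 groups together Sult1a1 alone passed the F-test of limma (adjusted p = 0.0493), which 0.555% of rows passed, and Errfi1 (0.0519) and Sgk1 (0.0562) came next.

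Many of these calls were lost when single animals were left out. Without HC animal 1 the counts fell to 0, 0, 0 and 0, without HC animal 2 to 0, 0, 1 and 0, and without both no gene passed in any group. Of all rows 0%, 0.00455%, 0.00303% and 0% then passed as higher. The CSD1 count also fell to 0 without CSD1 animal 18 or 19, the CSD14 count to 1 without CSD14 animal 12 or 13, and the CSD7 count to 2 without CSD7 animal 17. In these fits without a single animal the share of all rows that passed was not counted. The falls are therefore not known to be particular to the 10 genes. The sizes moved less than the calls. Against HC animals 5 and 6 alone the median difference of the 10 genes was 0.55, 0.67, 0.58 and 0.26, with 8, 9, 9 and 9 of 10 positive and 6, 8, 7 and 3 at an unadjusted p below 0.05, against 8.69%, 9.29%, 9.12% and 7.38% of all rows. None of the 10 genes passed against HC with all arrays set to one distribution. Nr3c1 turned negative in CSD1, CSD7 and CSD14 both there and without HC animals 1 and 2.

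**Figure D1:**
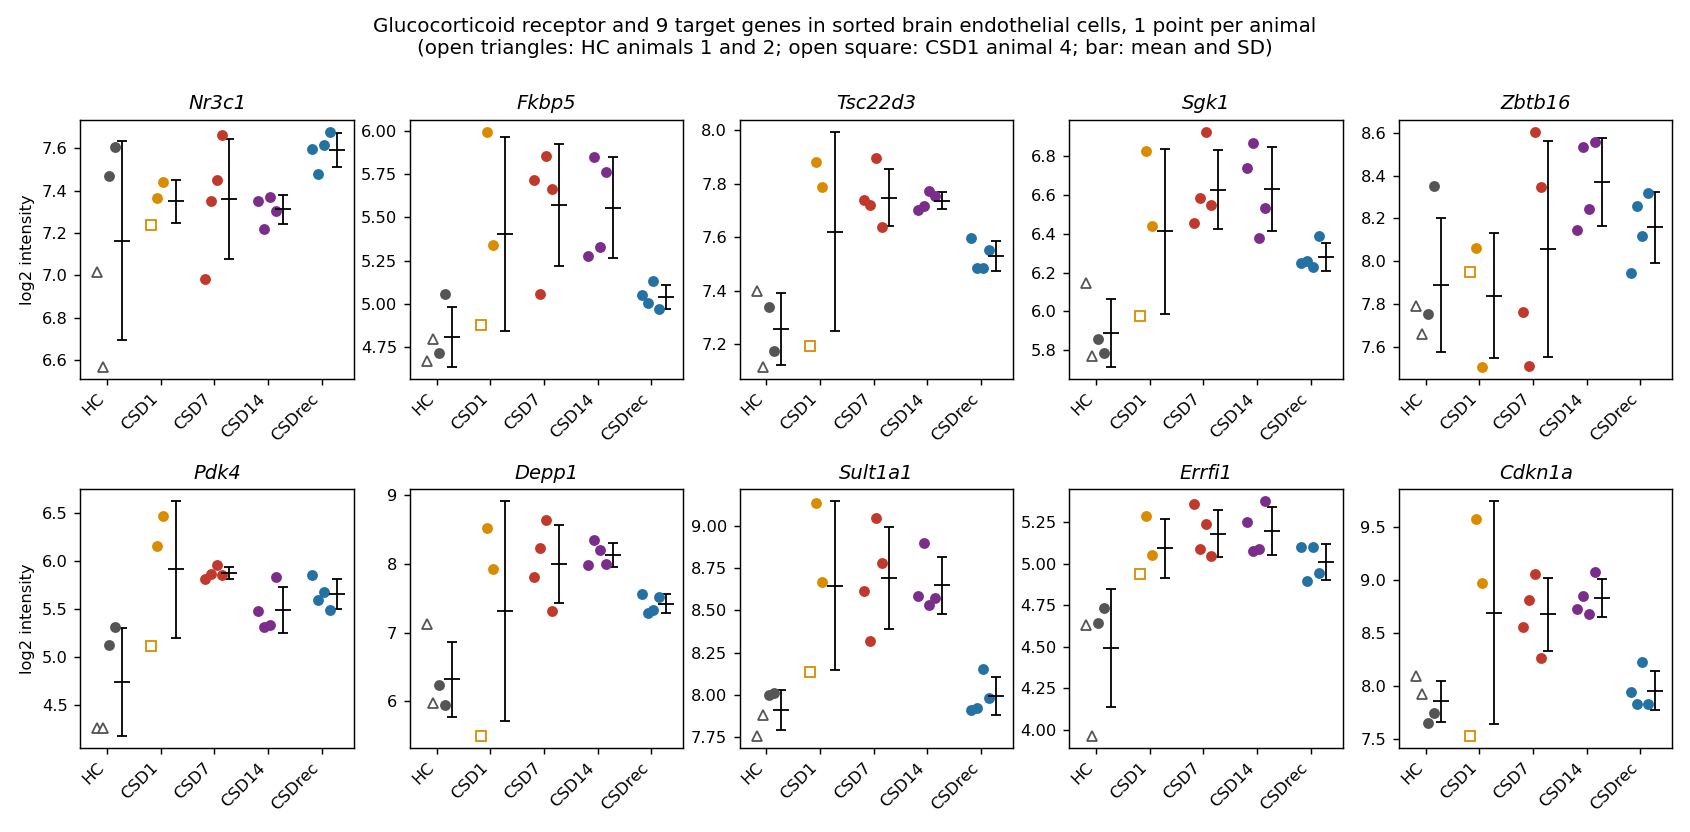
Log2 intensity (vertical axes) of the receptor gene and 9 target genes in each of 19 animals by group, with the mean and SD as bars, open triangles for HC animals 1 and 2 and an open square for CSD1 animal 4. Depp1 runs from 5.95 to 7.12 in HC and from 7.98 to 8.34 in CSD14, while Nr3c1 spans 6.57 to 7.60 in HC alone.

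The receptor itself did not pass in any comparison. Nr3c1 read 7.01, 6.57, 7.47 and 7.60 in HC animals 1, 2, 5 and 6. It read 7.24, 7.37 and 7.44 in CSD1, 6.98, 7.35, 7.45 and 7.66 in CSD7, and 7.35, 7.22, 7.37 and 7.30 in CSD14. In CSDrec it read 7.60, 7.48, 7.62 and 7.68. The HC animals covered nearly the whole range of the study, since the lowest value of the 19 was that of HC animal 2. The differences from HC were 0.19, 0.20, 0.15 and 0.43 in CSD1, CSD7, CSD14 and CSDrec (standard error 0.17 to 0.18, adjusted p = 0.517, 0.438, 0.588 and 0.131), and -0.19, -0.17, -0.22 and 0.056 against HC animals 5 and 6 alone. The sign during defeat thus followed the choice of controls. Between CSDrec and CSD14, whose means do not involve the controls, each recovered animal was higher than each defeated one, by 0.28 on average (95% interval -0.08 to 0.64, adjusted p = 1.00). That interval takes its error from all 5 groups, and the SD was 0.47 in HC against 0.07 in CSD14 and 0.08 in CSDrec. Fitted on these 2 groups alone the interval was 0.14 to 0.42 (adjusted p = 0.342 by limma).

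Fkbp5, Tsc22d3 and Zbtb16 encode regulators that the receptor induces. Fkbp5, a co-chaperone in the receptor complex that lowers the affinity for the hormone and so closes a short feedback loop, read 4.67, 4.80, 4.72 and 5.06 in HC. It read 4.88, 5.99 and 5.34 in CSD1, 5.71, 5.06, 5.85 and 5.66 in CSD7, and 5.28, 5.85, 5.33 and 5.76 in CSD14. In CSDrec it was back to 5.05, 5.00, 5.14 and 4.97, of which only 1 value lay above the highest HC animal. Fkbp5 was 1.69-fold higher in CSD7 (log2 0.76 ± 0.20 SE, adjusted p = 0.0293) and 1.67-fold in CSD14 (0.74 ± 0.20, adjusted p = 0.0359). The 4 CSD14 animals lay above all HC animals, while CSD7 animal 16 did not.

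Tsc22d3, also called GILZ, encodes a leucine zipper protein that carries part of the anti-inflammatory action of glucocorticoids. It read 7.40, 7.12, 7.34 and 7.17 in HC, 7.19, 7.88 and 7.79 in CSD1, 7.74, 7.72, 7.90 and 7.64 in CSD7, 7.70, 7.72, 7.77 and 7.75 in CSD14, and 7.60, 7.49, 7.48 and 7.55 in CSDrec. CSD14 was the tightest group, with an SD of 0.03. The 4 groups of 4 separated in steps, with HC lowest, CSDrec next and both CSD7 and CSD14 on top, and no value of CSDrec reached into its neighbours. The rise was 0.49 in CSD7 (adjusted p = 0.0201) and 0.48 in CSD14 (adjusted p = 0.0235), with a standard error of 0.11 each, and 0.49 and 0.48 against HC animals 5 and 6 alone.

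Zbtb16, a zinc finger repressor of transcription also called PLZF, behaved less evenly and passed in no group. It read 7.79, 7.66, 7.75 and 8.35 in HC and 7.95, 8.06 and 7.51 in CSD1. CSD7 split into 7.76 and 7.51 (animals 9 and 16) and 8.60 and 8.35 (animals 17 and 25). CSD14 read 8.15, 8.54, 8.24 and 8.56 and CSDrec 7.95, 8.26, 8.12 and 8.32. Its largest difference from HC was 0.48 in CSD14 (adjusted p = 0.137), and CSD14 lay above CSD1 in every animal, by 0.53 (95% interval 0.06 to 1.00), with an adjusted p of 1.00.

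Sgk1, the serum and glucocorticoid regulated kinase, acts on ion channels and transporters and phosphorylates FoxO factors. It read 6.15, 5.77, 5.86 and 5.78 in HC, 5.97, 6.83 and 6.44 in CSD1, 6.46, 6.58, 6.92 and 6.55 in CSD7, 6.74, 6.87, 6.38 and 6.53 in CSD14, and 6.25, 6.26, 6.23 and 6.39 in CSDrec. All CSD7, CSD14 and CSDrec animals were above all HC animals. Sgk1 was 1.67-fold higher in both CSD7 and CSD14 (log2 0.74 ± 0.15 SE in each, adjusted p = 0.0166 and 0.0170), and the difference was 0.81 in both without HC animals 1 and 2.

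Sgk1 was also the gene whose sequence near a start site held the full paired element of the receptor. RefSeq (GRCm38.p6) gives windows of 250 bases before to 50 bases after a start site for 8 of the 10 genes, 17 windows in all, with 6 for Sgk1, and none was given for Nr3c1 and Zbtb16. They were searched on both strands for the half-site AGAACA, which reads as its reverse complement on the opposite strand, and for the full element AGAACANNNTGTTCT, which holds a half-site on each strand. The half-site occurred in 5 of the 17 windows, of Sgk1, Sult1a1 and Tsc22d3, against 19% of all 32851 windows. The full element occurred in 1 window of Sgk1 and in 3 of the 32851 windows in all (0.00913%). These are matches of letters and no measured binding sites. The 3 windows below are shown because they hold a match beside genes that rose, with the matches in capitals. The Sgk1 window lies at chr10:21993640-21993939 on the + strand, with the full element at bases -189 to -175 from the start and a further half-site at -242 to -237. The Sult1a1 window lies at chr7:126676369-126676668 on the - strand, with half-sites at -212 to -207 and -34 to -29. The Tsc22d3 window lies at chrX:140600473-140600772 on the - strand, with a half-site at -185 to -180.
Sgk1: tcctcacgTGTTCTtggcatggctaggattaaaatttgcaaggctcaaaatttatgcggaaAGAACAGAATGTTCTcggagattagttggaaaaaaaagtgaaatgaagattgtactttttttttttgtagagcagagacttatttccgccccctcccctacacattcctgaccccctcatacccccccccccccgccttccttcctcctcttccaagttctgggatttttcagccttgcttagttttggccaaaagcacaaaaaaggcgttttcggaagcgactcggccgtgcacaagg
Sult1a1: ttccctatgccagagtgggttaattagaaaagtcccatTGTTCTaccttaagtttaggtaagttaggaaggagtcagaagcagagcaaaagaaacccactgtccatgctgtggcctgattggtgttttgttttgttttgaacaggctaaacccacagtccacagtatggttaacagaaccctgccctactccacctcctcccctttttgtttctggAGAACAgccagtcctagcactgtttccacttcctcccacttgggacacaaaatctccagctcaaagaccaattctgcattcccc
Tsc22d3: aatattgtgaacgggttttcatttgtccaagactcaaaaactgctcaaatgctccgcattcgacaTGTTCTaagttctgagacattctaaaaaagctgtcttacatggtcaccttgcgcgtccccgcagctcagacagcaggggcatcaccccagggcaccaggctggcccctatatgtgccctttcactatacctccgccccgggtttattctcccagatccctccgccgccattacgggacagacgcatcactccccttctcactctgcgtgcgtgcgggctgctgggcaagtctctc

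**Figure D2:**
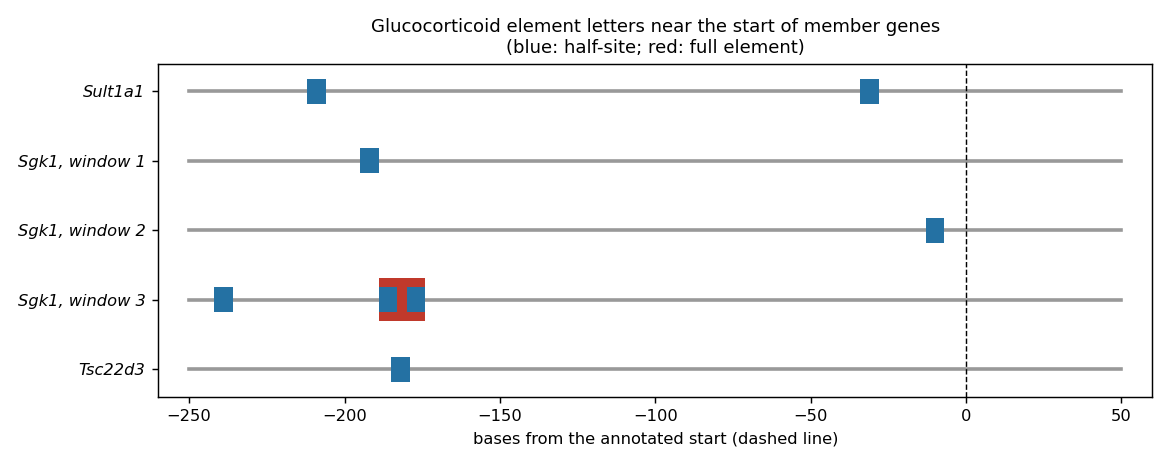
Positions of half-sites (blue) and of the full element (red) in the 5 windows with a match, with bases from the annotated start on the horizontal axis and 1 line per window. The full element of Sgk1 lies between -189 and -175.

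Pdk4, Depp1 and Sult1a1 encode proteins of metabolism. Pdk4, a kinase that shuts pyruvate dehydrogenase and so spares glucose, was at 4.25, 4.26, 5.12 and 5.32 in HC, where animals 1 and 2 were the lowest of all 19. It read 5.11, 6.15 and 6.48 in CSD1, 5.82, 5.87, 5.96 and 5.85 in CSD7, 5.47, 5.31, 5.34 and 5.84 in CSD14, and 5.86, 5.59, 5.68 and 5.49 in CSDrec. The rise of 1.18 in CSD1 (2.26-fold, adjusted p = 0.0308) and 1.14 in CSD7 (2.20-fold, adjusted p = 0.0192) shrank to 0.69 and 0.66 against HC animals 5 and 6 alone. In CSD14 the difference was 0.75 (adjusted p = 0.0706), and it fell to 0.27 against those 2 animals. Pdk4 was the only target gene with a mean in CSDrec above that of CSD14, by 0.17 (95% interval -0.37 to 0.70), and its CSDrec animals stayed above all HC animals (0.92, adjusted p = 0.0660). Against HC animals 5 and 6 alone the CSDrec difference was 0.44.

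Depp1, a FoxO target linked to autophagy, had the largest differences in CSD7 and CSD14. It read 7.12, 5.98, 6.24 and 5.95 in HC and 5.49, 8.52 and 7.93 in CSD1. It read 7.81, 8.23, 8.64 and 7.32 in CSD7, 7.98, 8.34, 8.20 and 7.99 in CSD14 and 7.56, 7.28, 7.33 and 7.52 in CSDrec. HC animal 1 was the highest control for this gene, although its array was low for most expressed rows. Depp1 was 3.20-fold higher in CSD7 (log2 1.68 ± 0.45 SE, adjusted p = 0.0307) and 3.50-fold in CSD14 (1.81 ± 0.45, adjusted p = 0.0280). Against HC animals 5 and 6 alone these were 1.91 and 2.04. In CSDrec all 4 animals were still above all HC animals, by 1.10 on average (adjusted p = 0.140).

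Sult1a1, a sulfotransferase for phenols, drugs and hormones, read 7.76, 7.88, 7.999 and 8.01 in HC. All animals of the 3 groups taken during defeat were above this range, with 8.14, 9.14 and 8.67 in CSD1, 8.62, 8.32, 9.05 and 8.78 in CSD7 and 8.59, 8.90, 8.53 and 8.57 in CSD14. CSDrec returned to 7.91, 7.92, 8.15 and 7.98. Sult1a1 passed in CSD1 (1.67-fold, adjusted p = 0.0338), CSD7 (1.72-fold, adjusted p = 0.0182) and CSD14 (1.67-fold, adjusted p = 0.0219), with log2 differences of 0.74, 0.78 and 0.74. In CSDrec the difference was 0.08 (95% interval -0.28 to 0.44).

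Errfi1 and Cdkn1a restrain growth. Errfi1, also called MIG6, blocks the epidermal growth factor receptor and its relatives. It read 4.63, 3.96, 4.64 and 4.73 in HC, 4.94, 5.29 and 5.05 in CSD1, 5.36, 5.09, 5.24 and 5.05 in CSD7, 5.25, 5.08, 5.09 and 5.38 in CSD14, and 5.10, 4.90, 5.10 and 4.94 in CSDrec. It was the only gene with all 15 stressed animals above all HC animals. The differences were 0.60, 0.69, 0.71 and 0.52 (adjusted p = 0.0336, 0.0157, 0.0146 and 0.0646), and 0.41, 0.49, 0.51 and 0.32 against HC animals 5 and 6 alone, since HC animal 2 was the lowest of the 19.

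Cdkn1a, or p21, an inhibitor of cyclin-dependent kinases that p53 also induces, read 8.09, 7.92, 7.65 and 7.75 in HC. It read 7.53, 9.58 and 8.97 in CSD1, 8.56, 8.81, 9.06 and 8.26 in CSD7 and 8.73, 8.84, 8.68 and 9.08 in CSD14, with all animals of CSD7 and CSD14 above all HC animals. In CSDrec it was 7.94, 7.83, 8.22 and 7.83. The difference of 0.98 in CSD14 passed (1.97-fold, adjusted p = 0.0468), and those of 0.82 in CSD7 (adjusted p = 0.0692) and 0.84 in CSD1 (adjusted p = 0.0925) did not. In CSDrec the difference was 0.10 (95% interval -0.51 to 0.71).

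**Figure D3:**
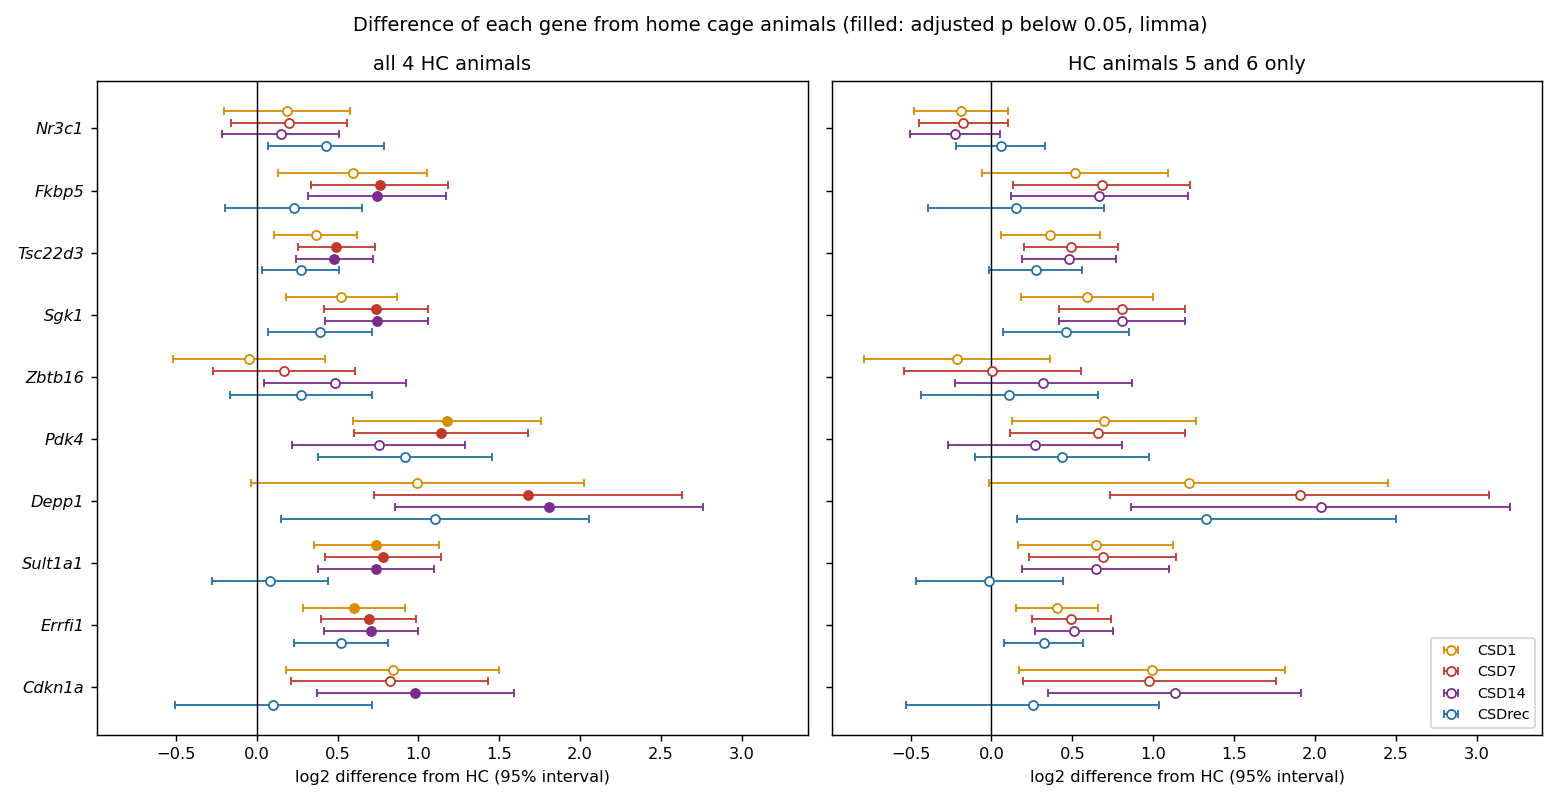
Log2 difference from HC (horizontal axis, points) with its 95% interval (bars) for each gene and stress group, against all 4 HC animals on the left and HC animals 5 and 6 on the right, with filled points for an adjusted p below 0.05. The left panel has 17 filled points and the right panel 0, while Depp1 in CSD14 goes from 1.81 to 2.04 and Nr3c1 from 0.15 to -0.22.

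After 1 day of defeat the 3 animals did not read alike. CSD1 animals 18 and 19 were each above all HC animals in 8 of the 10 genes, all but Nr3c1 and Zbtb16. CSD1 animal 4 was above all HC animals in 2 genes (Sult1a1 and Errfi1), below all of them in 2 (Depp1 and Cdkn1a), and the lowest of CSD1 in 9 of 10. For Depp1 it read 5.49 beside 8.52 and 7.93, and for Cdkn1a 7.53 beside 9.58 and 8.97. Without it 8 genes passed in CSD1 in place of 3, with differences of 1.90 for Depp1 (adjusted p = 0.00398), 1.58 for Pdk4 (adjusted p = 0.00298) and 1.42 for Cdkn1a (adjusted p = 0.00210). In that fit 6.65% of all rows passed as higher. The group of 3 lay wholly above HC in 2 of the 10 genes, against 9.78% of all rows. Microglia markers were also lowest in this animal, at a mean of 4.21 while animals 18 and 19 had 5.04 and 5.38 and HC spanned 3.91 to 4.11, and pericyte markers were highest, at 6.23 against 5.09 and 5.46. Their part in the result was not tested. The number of animal 4 also falls among those of the HC animals (1, 2, 5 and 6), while all other stressed animals are numbered 9 to 31. The labels do not say what the numbers stand for. An effect of place in that order cannot be told apart from one of defeat.

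The stress groups themselves could not be ranked for most genes. Between CSD7 and CSD1, CSD14 and CSD7, and CSD14 and CSD1 limma called 0% of rows in each, and 910, 1006 and 1900 rows had an unadjusted p below 0.05. Of the 10 genes 0, 0 and 1 did, the last being Zbtb16. From CSD7 to CSD14 Pdk4 differed by -0.39 (95% interval -0.92 to 0.15), with all CSD14 animals below the CSD7 mean, and Sgk1 by 0.002 (-0.32 to 0.32). The groups of 4 do not overlap HC on the high side in 7 genes in both CSD7 and CSD14, against 7.47% and 10.1% of all rows.

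The target genes other than Pdk4 had lower means in CSDrec than in CSD14, to different degrees. Cdkn1a, Sult1a1, Fkbp5, Depp1 and Tsc22d3 were lower in every CSDrec animal than in every CSD14 animal, and Nr3c1 was higher in every one, where 2.33% of all rows did not overlap on the low side (4.06% of expressed rows) and 2.5% on the high side. The differences were -0.88, -0.66, -0.52, -0.71 and -0.21 for the 5 genes in that order. By limma 0% of rows passed between these groups, also none of the 10 genes, of which 4 had an unadjusted p below 0.05 (Sult1a1, Cdkn1a, Fkbp5 and Sgk1), as did 3.67% of all rows. The differences do not involve the HC arrays, while the error of the fit does. Fitted on CSDrec and CSD14 alone, limma again called 0 of the 10 genes, and 7 had an unadjusted p below 0.05, against 8.85% of all rows. Against HC, Tsc22d3, Sgk1, Pdk4, Depp1 and Errfi1 were still above all HC animals in every CSDrec animal, 5 of 10 genes against 8.38% of all rows. Pdk4 and Errfi1 came nearest to the threshold (adjusted p = 0.0660 and 0.0646), and both passed when only expressed rows were tested by limma (adjusted p = 0.0446 and 0.0442). The share of rows that passed in that fit was not counted, so these calls have no background beside them. Sult1a1, Cdkn1a and Fkbp5 overlapped HC.

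**Figure D4:**
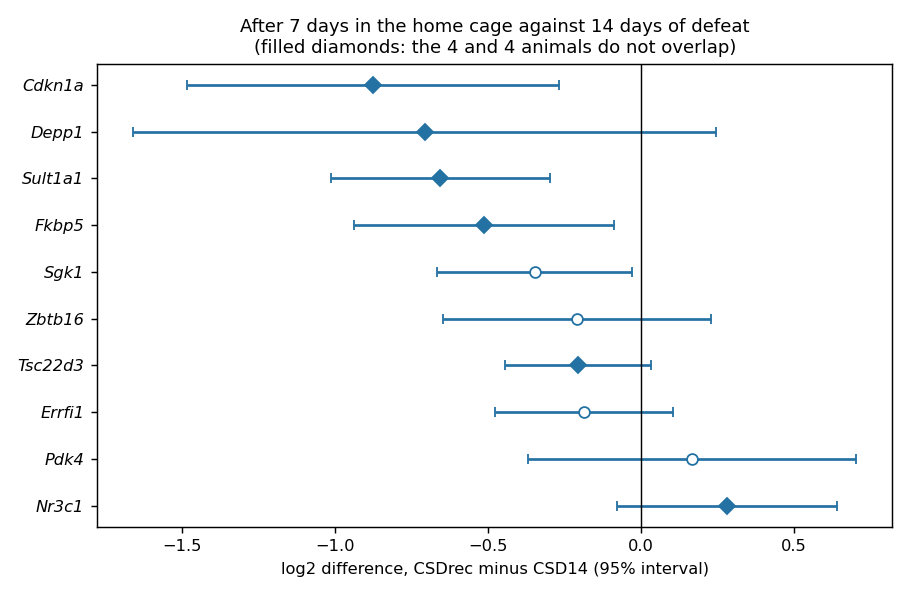
Log2 difference of CSDrec from CSD14 (horizontal axis, points) with its 95% interval (bars) for the 10 genes, in order of size, with filled diamonds where the 4 and 4 animals do not overlap. Cdkn1a is lowest at -0.88 and Nr3c1 highest at 0.28.

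A wider list of 28 further genes known as glucocorticoid targets moved in the same direction during defeat. The list was chosen with earlier results of these data known, so its direction is a description and no independent check. Among the 28 genes 14, 21, 18 and 0 passed as higher in CSD1, CSD7, CSD14 and CSDrec. Of expressed rows 12.6%, 19.2%, 14.6% and 0.0364% did. No gene of the list passed as lower, and 27 of 28 differences were positive in each group. The medians of the list were 0.65, 0.73, 0.68 and 0.31, and 0.46, 0.51, 0.46 and 0.17 against HC animals 5 and 6 alone. There 0, 1, 1 and 0 of the 28 passed by limma, and 17, 21, 15 and 5 had an unadjusted p below 0.05. The shares of all rows with such a p were 8.69%, 9.29%, 9.12% and 7.38%. The one that passed there was Dusp1, a phosphatase of MAP kinases, in CSD7 (1.25, adjusted p = 0.0491) and CSD14 (1.28, adjusted p = 0.0348). In CSD1 the largest rises were those of Lrg1, a glycoprotein of vessel growth (1.92, adjusted p = 0.0296), and Angptl4, an inhibitor of lipoprotein lipase (1.50, adjusted p = 0.0272). In CSD7 Angptl4 (1.38, adjusted p = 0.0158) and the metallothionein Mt2 (1.17, adjusted p = 0.0173) led. In CSD14 Angptl4 (1.22, adjusted p = 0.0215), the mRNA-decay factor Zfp36 (1.16, adjusted p = 0.0133) and the kinase Map3k6 (1.05, adjusted p = 0.0133) led. From CSD14 to CSDrec the median difference was -0.28, with 3 of 28 positive, and Lcn2 (-1.27), Lrg1 (-0.91) and Map3k6 (-0.70) had the largest differences, none past the threshold. The mean of the list per animal again put CSD1 animal 4 (6.56) beside HC (6.17 to 6.50) and animals 18 and 19 (7.42 and 7.07) far above.

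Of 14 inflammatory genes that glucocorticoids are known to lower, 0 passed in either direction in any of the 4 comparisons with HC. Their median differences were 0.15, 0.13, 0.12 and 0.24, and 10, 10, 12 and 11 were positive. Against HC animals 5 and 6 alone the medians were 0.11, 0.072, 0.077 and 0.10. These medians take in genes that are not expressed, so they are not set against those of expressed rows. The largest differences were those of Ptgs2, an enzyme of prostaglandin synthesis, with 1.46, 1.32, 1.34 and 0.64 (adjusted p = 0.0586, 0.0516, 0.0576 and 0.330), and of the adhesion molecules Vcam1, with 0.91, 0.93, 0.76 and 0.94, and Icam1, with 0.87, 0.72, 0.69 and 0.74. Only 8 of the 14 were above the receptor level, and a change in the rest is hard to read. Among those, Il6 (mean 2.32) was lower than all HC animals in every CSD1 animal, by -0.21 (adjusted p = 0.0591 by limma). Il1a (mean 3.06) was higher than all HC animals in CSD1, CSD7 and CSD14, by 0.29, 0.58 and 0.19.

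Among 12 genes that work with the receptor (chaperones, coactivators, the related mineralocorticoid receptor and enzymes or pumps that handle the hormone), 2, 5, 5 and 0 passed as higher. The shares of expressed rows that did were 12.6%, 19.2%, 14.6% and 0.0364%. The co-chaperone Fkbp4, which opposes Fkbp5 in the complex, rose in the 3 groups taken during defeat, by 0.43, 0.41 and 0.59 (adjusted p = 0.0377, 0.0260 and 0.0133), and Stip1, which joins Hsp70 to Hsp90, by 0.80, 0.68 and 0.67 (adjusted p = 0.0313, 0.0272 and 0.0332). Hspa8, the coactivator Ncoa2 and the corticosterone-inactivating enzyme Hsd11b2 passed in CSD7 and CSD14. Hsd11b2 had a mean of only 3.27, near the receptor level, and Hsd11b1, which regenerates the hormone, lay below it at 2.84. The median of the 12 was 0.34, 0.39, 0.38 and 0.34, and 0.12, 0.17, 0.15 and 0.12 against HC animals 5 and 6 alone. There none of the 12 passed by limma, and 2, 3, 2 and 1 had an unadjusted p below 0.05, as did 8.69%, 9.29%, 9.12% and 7.38% of all rows. Nr3c2, the mineralocorticoid receptor, passed in no group, with differences of 0.31, 0.37, 0.30 and 0.49.

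Depp1, Pdk4 and Cdkn1a are also known targets of FoxO factors or p53, so lists for both were read beside them. The background for these lists is again the 12.6%, 19.2%, 14.6% and 0.0364% of expressed rows that passed as higher. Of 15 FoxO pathway genes 1, 8, 8 and 0 passed as higher, led in CSD7 by Txnip, an inhibitor of thioredoxin (0.80, adjusted p = 0.0194), and in CSD14 by Klf2 (0.71, adjusted p = 0.0354). Of 12 p53 targets 1, 5, 2 and 1 passed as higher. Btg2, an early response gene that limits cell division, was the one that passed in CSDrec (1.30, adjusted p = 0.00851), after 1.11 in CSD7 (adjusted p = 0.0152) and 1.22 in CSD14 (adjusted p = 0.0129). The medians were 0.38, 0.52, 0.47 and 0.36 for FoxO genes and 0.20, 0.24, 0.19 and 0.23 for p53 targets. Against HC animals 5 and 6 alone they were 0.10, 0.23, 0.17 and 0.087, and 0.056, 0.086, 0.059 and 0.045. None of either list passed by limma there, with an unadjusted p below 0.05 for 2, 8, 6 and 3 FoxO genes and 2, 3, 2 and 3 p53 targets. The same held for 8.69%, 9.29%, 9.12% and 7.38% of all rows.

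Markers of other cells moved with the groups too, and are read beside the 12.6%, 19.2%, 14.6% and 0.0364% of expressed rows that passed as higher. Of 17 microglia markers 4, 13, 2 and 0 passed as higher, 16 of the 17 were above the receptor level, among them Tmem119 with a mean of 5.47, and their mean per animal was 3.91 to 4.11 in HC, 4.21 to 5.38 in CSD1, 4.39 to 5.68 in CSD7, 4.49 to 4.80 in CSD14 and 4.56 to 5.11 in CSDrec. Against HC animals 5 and 6 alone none of the 17 passed by limma, and 9, 16, 5 and 12 had an unadjusted p below 0.05. Of all rows 8.69%, 9.29%, 9.12% and 7.38% had one. Astrocyte markers passed in 0, 3, 0 and 0 of 11 cases, with a highest mean of 5.97 in CSD7 animal 9 against 3.74 to 3.99 in HC. Border macrophage markers passed in 0, 2, 1 and 0 of 11 cases and had means of 4.59, 4.56 and 4.85 in CSDrec animals 28, 29 and 30 and 4.56 in CSD7 animal 9, against 3.55 to 3.89 in the other 15 animals. Pericyte markers passed in 0 of 9 cases in each group, with means of 4.48 to 6.89 in HC and 4.98 to 5.50 in CSD14. Against all 4 HC animals 4, 6, 0 and 7 of the 9 differences were positive, with medians of -0.0098, 0.084, -0.47 and 0.26. Against HC animals 5 and 6 alone none of the 9 passed by limma. In either direction, 9, 9, 9 and 7 had an unadjusted p below 0.05 there, so pericyte markers also set those controls apart from the stress groups. For astrocyte and border macrophage markers these counts were 0, 6, 0 and 1 and 0, 1, 0 and 9 of 11, and none passed. Smooth muscle markers passed in 0, 1, 0 and 0 of 7 cases, neuron markers in 1, 1, 1 and 0 of 11 and oligodendrocyte markers in 0, 1, 0 and 0 of 8. None of the lymphocyte markers passed. Those (2 of 8 above the receptor level) and the oligodendrocyte markers (5 of 8) were low, with means of 2.93 to 3.17 and 3.32 to 3.56. The group means over the microglia markers and over the 10 genes were both lowest in HC, and CSD1 animal 4, lowest of its group in 9 of the 10 genes, also had the lowest microglia mean there. CSD7 animal 25 had the lowest microglia mean of its group (4.39) and was above all HC animals in 9 of the 10 genes. The part of these cells in the results was not tested.

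**Figure D5:**
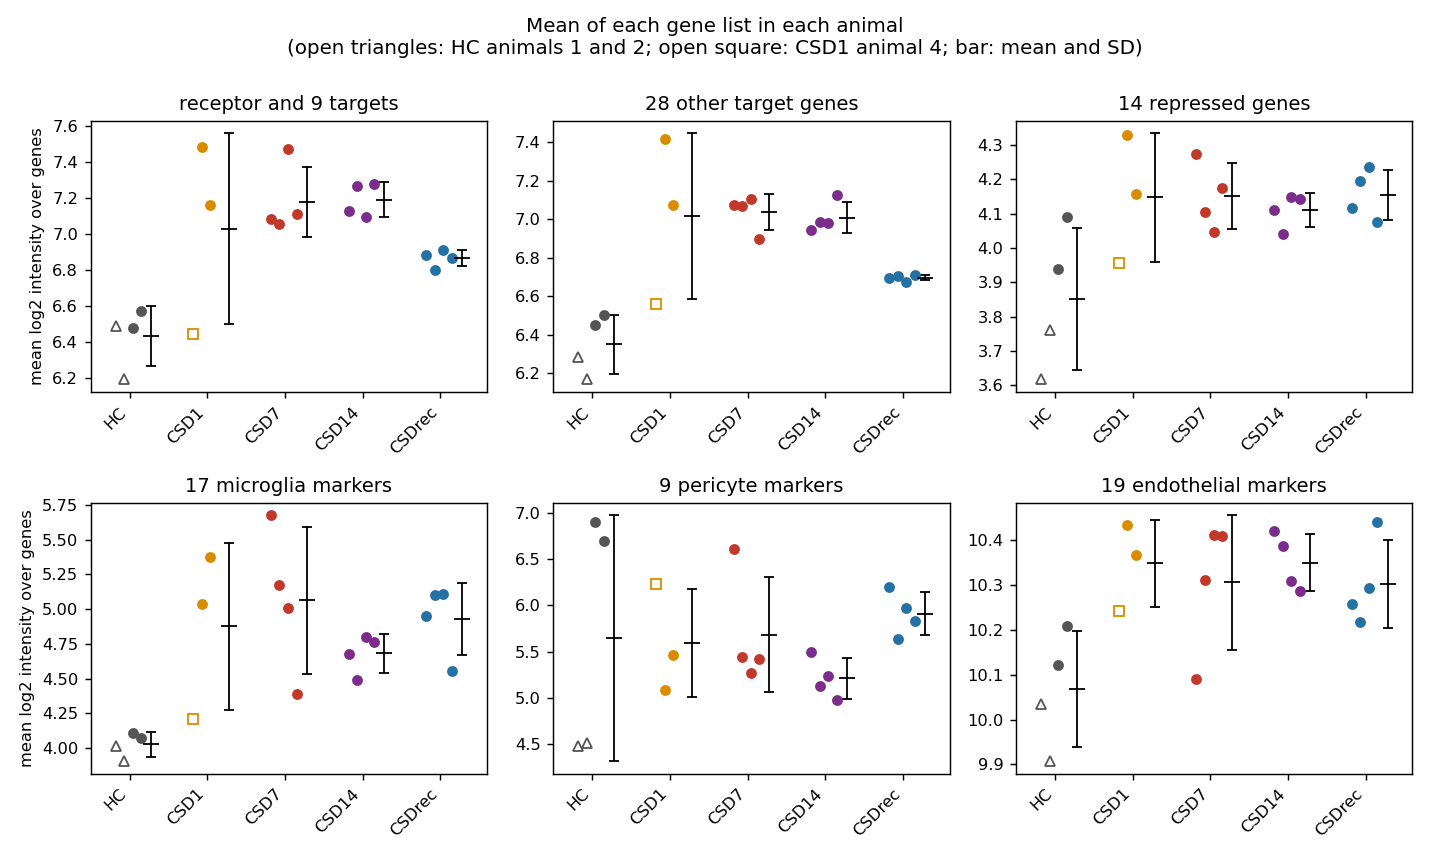
Mean log2 intensity over the genes of 6 lists (vertical axes) in each of 19 animals by group, with the mean and SD as bars, open triangles for HC animals 1 and 2 and an open square for CSD1 animal 4. The 28 other target genes rise from 6.17 to 6.50 in HC to 6.94 to 7.13 in CSD14 and read 6.68 to 6.71 in CSDrec.

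Across the 19 arrays each gene had close companions, given here as a description by Pearson's r, since the arrays share the HC animals and the groups. Sult1a1 ran closest with Xdh, xanthine dehydrogenase (r = 0.96 over 19 arrays and 0.96 over the 17 without HC animals 1 and 2). Fkbp5 ran with Doc2b (0.95 and 0.94), Depp1 with Zfp36 (0.94 and 0.95), Sgk1 with Edn1, the gene of endothelin-1 (0.93 and 0.92), Tsc22d3 with Rnf144b (0.93 and 0.92) and Cdkn1a with Ddit4 (0.91 and 0.92). Of these, Xdh, Zfp36 and Ddit4 belong to the wider target list, which was chosen with earlier results of these data known. For Nr3c1 the closest row over 19 arrays was its relative Nr3c2 (0.95 and 0.88). Over 17 arrays Apbb2 ran as close to Nr3c1 (0.88), while Rnf144b came before Edn1 for Sgk1 (0.93) and Tmem252 before Ddit4 for Cdkn1a (0.95). Pdk4 with Bbs7 (0.94 and 0.83) and Errfi1 with Aar2 (0.92 and 0.79) lost more without the 2 compressed arrays. Zbtb16 had the weakest companion, Shroom2 (0.81 and 0.82).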

How the data were processed

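Labels and methods give total RNA of sorted endothelial cells on 19 arrays. The authors deposited log2 values, made by background correction (RMA), quantile normalization and median polish in Partek Genomics Suite 6.6 by the methods. The labels name Affymetrix Expression Console and another array type than the Clariom D of the methods. For the array data no source used here names a genome build, while the promoter windows are on GRCm38.p6. Of 72688 rows, 6732 control rows were left out. Of the 65956 others, 30638 have 1 symbol, 2176 several and 33142 none. No further scaling was applied. limma 3.58.1 in R 4.3.3 fitted 5 groups together, with 14 residual and 3.60 prior degrees of freedom, and was tested on simulated data. The number of arrays limits precision, and the labels do not tell separate cohorts apart. Each gene was represented by the row with it as only symbol and the highest mean. Members and lists were chosen with earlier results of these data known, and a list is described by its counts and median without a test. Listed genes without a row of their own were not analysed here. Named list genes have the largest differences past the threshold, or else the largest, and companions are the 3 highest correlations among named expressed genes, of which the first is given. Alternatives were another rule for the row (which changed nothing, as each gene has 1), 2 other scalings, array weights, expressed rows only, the 2 groups compared alone, an ordinary F-test, no HC animals 1 and 2, and each animal left out in turn. Figures used Python 3.11.15 and matplotlib 3.10.9.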

Additional observations from a re-analysis of the deposited data

Results flagged for a closer look

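In 40 groups of 4 animals (10 genes in HC, CSD7, CSD14 and CSDrec), 2 held 1 value far from the other 3, where chance flags about 1 in 20 groups. Sult1a1 in CSD14 animal 13 read 8.90, and its gap to the nearest animal was 0.849 of the group's range. Errfi1 in HC animal 2 read 3.96, with a gap of 0.866 of the range, and that array is one of the 2 compressed ones.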

How the results depend on the processing

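No paired analysis was possible because no replicate numbers are shared between groups. With all arrays set to one distribution, the counts of genes called were 0 for CSD1, 0 for CSD7, 0 for CSD14 and 0 by the F-test. The differences from HC that changed sign there were those of Nr3c1 (-0.23 in CSD1, -0.16 in CSD7 and -0.17 in CSD14), Tsc22d3 in CSD1 (-0.016), Zbtb16 in CSD7 (-0.099), and Cdkn1a (-0.091), Fkbp5 (-0.11) and Sult1a1 (-0.14) in CSDrec. Without HC animals 1 and 2 the same 4 counts were 0, with Nr3c1 at -0.19, -0.17 and -0.22 and Sult1a1 in CSDrec at -0.013. With array weights 8 genes passed in CSD1, 9 in the F-test and 2 between CSD14 and CSD1, against 10.1% (higher), 16.3% and 10.1% of all rows, and Nr3c1 read -0.034, -0.051 and -0.15 in CSD1, CSD7 and CSD14. With only expressed rows 2 passed in CSDrec and 4 in the F-test, where the share of rows that passed was not counted. With only the 2 groups compared 0 passed in CSD1, CSD7 and CSD14. The F-test called 0 with arrays shifted to one median and 0 in its ordinary form. Leaving out 1 animal at a time gave 0 to 8 genes called for CSD1, 0 to 8 for CSD7, 0 to 9 for CSD14, 0 to 3 for CSDrec and 0 to 8 in the F-test. The 8 for CSD1 and the 8 in the F-test came without CSD1 animal 4. There 6.65% (higher) and 3.19% of all rows passed, against 5.84% and 0.555% in the main fit. For the other counts of this kind the share of rows was not counted. In CSD14 the count was 1 without animal 12 or 13 and 3 without animal 14 or 15, and in CSD7 it was 2 without animal 17. Leaving out CSD1 animal 18 or 19 took its count to 0. Nr3c1 ran from -0.013 to 0.33 in CSD1, from -0.00034 to 0.35 in CSD7 and from -0.051 to 0.29 in CSD14. Zbtb16 ran from -0.16 to 0.12 in CSD1 and from -0.014 to 0.35 in CSD7. The count of genes lower in every CSDrec than in every CSD14 animal, an alternative chosen after seeing the data, was 5 to 6, and that of genes higher was 1 to 2. The cause of these changes was not tested. With all arrays set to one distribution the median expressed row differed from HC by 0.034 to 0.048, and 413 rows passed as higher in CSD14 against 197 as lower. There, 0 rows passed as higher in CSD1 and 96 in CSD7. Arrays give no counts, so precision rests on 3 or 4 animals per group.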
